A study of Mus musculus with 6 samples.

Results

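Mitochondrial carriers are the transport proteins of the mitochondrial inner membrane, encoded by the Slc25 gene family and, within it, by the uncoupling protein genes Ucp1, Ucp2 and Ucp3. They were taken here as every row of the deposited table whose symbol was Slc25a followed by a number, or Ucp1, Ucp2 or Ucp3. This gave 50 of 23955 gene symbols, 47 named Slc25a and 3 named Ucp. The RNA came from haematopoietic stem cells (HSCs) sorted from bone marrow as CD150+ CD48- cells of the LSK fraction, which is lineage-negative, Sca1+ and c-Kit+. One group was db/db mice, C57BL/6 animals that are obese because both copies of the leptin receptor gene are mutant in every cell, and the other was their WT littermates, both at 4 months of age. There were 3 independent experiments, each with 1 db/db and 1 WT library of 20000 sorted cells, so n = 3 libraries in each group. Whether a library held cells of 1 mouse or of several is not stated, and the mutation is not restricted to HSCs, so the marrow around them lacked the same receptor. The comparison of db/db with WT asked which transcripts go with obesity in this compartment.

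Each carrier passes a given set of small molecules through a membrane that is otherwise closed to them, such as ADP against ATP, phosphate, citrate, amino acids, iron or cofactors. Together they tie the respiratory chain and the matrix enzymes to the cytosol. Long-term HSCs are known for low mitochondrial activity and a reliance on glycolysis at rest. Ucp1 is the heat-producing uncoupler of brown fat and Ucp3 a relative best known from muscle, while Ucp2 is found widely in blood and immune cells and has been described as a carrier that exports metabolites from the matrix.

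Values were TPM, a measure of transcript abundance per length that sums to 1000000 in each library. Read depth is unknown, so the error given is the spread between libraries. The number of symbols above 0 ran from 13314 to 13624 in db/db and from 13319 to 13810 in WT libraries. The ribosomal RNA symbol Rn45s held 6.34% to 8.51% of the TPM in db/db and 6.46% to 10.4% in WT libraries. Size factors, computed as the median ratio of each library to the average library, ran from 0.915 to 1.23 in db/db and from 0.815 to 1.14 in WT libraries. HSC markers were present in every library, with Hlf at 293 to 348 TPM in db/db and 169 to 325 TPM in WT HSCs, and Cd48, which the sort excludes, at 1.63 to 21.4 and 1.09 to 5.35 TPM. Slamf1, which encodes the sort marker CD150, was at 24.96 to 38.9 TPM in db/db and 11.9 to 24.0 TPM in WT HSCs, apart like Ucp2 as TPM and overlapping with median-of-ratios scaling.

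Carrier transcripts differed widely in level. Of the 50 members, 6 averaged at least 100 TPM over the 6 libraries, 17 lay between 10 and 100 TPM, 17 between 1 and 10 TPM, and 5 were above 0 but under a mean of 1 TPM. The other 5, Ucp1, Ucp3, Slc25a31, Slc25a48 and Slc25a54, were listed at 0 in all 6 libraries. Slc25a31 encodes the ADP/ATP carrier of the testis. The most abundant members were Slc25a5, an ADP/ATP carrier, and Slc25a3, the phosphate carrier, and these are the pair that supplies ATP synthase with its substrates. Ucp2 came next, followed by Slc25a4, the ADP/ATP carrier of heart and muscle, the citrate carrier Slc25a1 and the oxoglutarate-malate carrier Slc25a11. The SDs of Slc25a5 and Slc25a3 overlapped, as did those of Slc25a4, Slc25a1 and Slc25a11, so the order within each of these sets is not resolved. Ucp2 was below Slc25a3 and above Slc25a4 in every library.

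**Figure D1:**
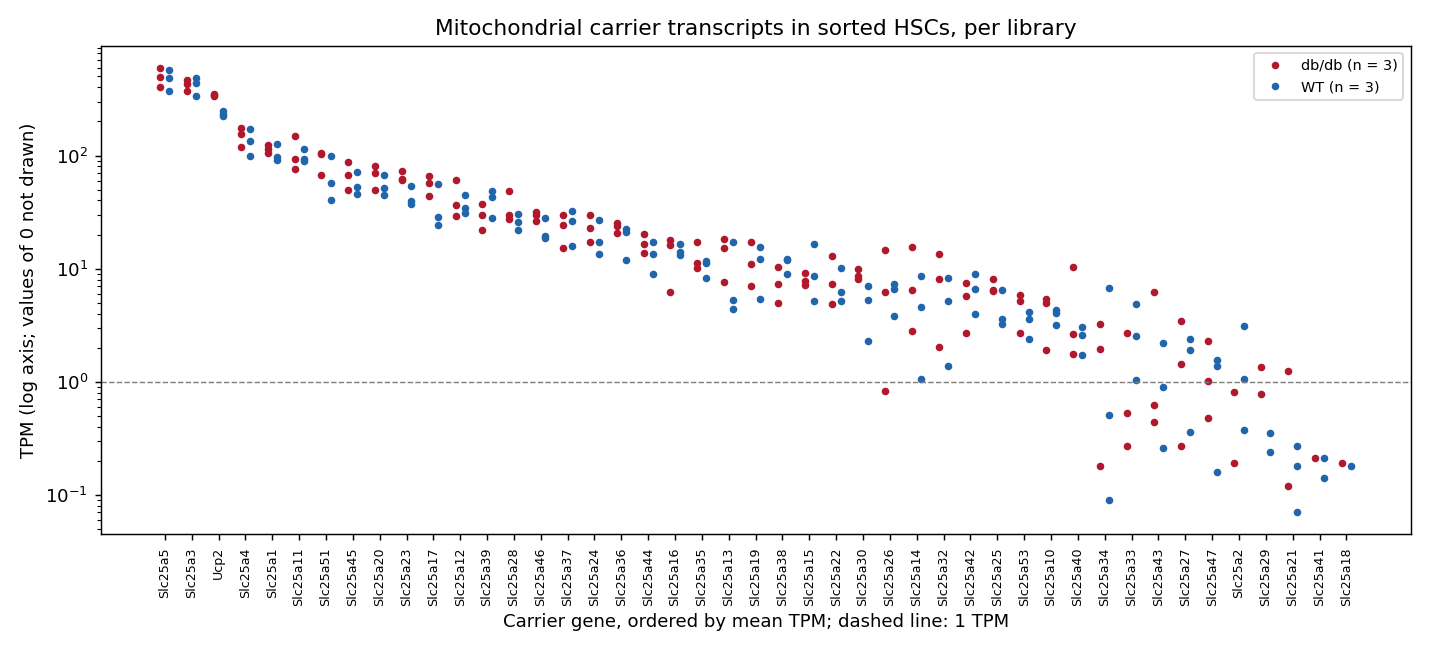
TPM of the 45 carriers above 0 (log axis), 1 point per library, with db/db in red left of WT in blue and genes ordered by their mean. Slc25a5, Slc25a3 and Ucp2 stand above all others, and the points of most genes overlap between genotypes.

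All 50 members together summed to 2122, 2449 and 2461 TPM in db/db replicates 1, 2 and 3, against 1748, 2090 and 2323 TPM in WT replicates 1, 2 and 3. The sum was higher in db/db in each experiment, but the db/db value of experiment 1 lay inside the WT range. Carriers thus made up 0.212% to 0.246% of the TPM in db/db and 0.175% to 0.232% in WT libraries. Slc25a5, Slc25a3, Slc25a4 and Ucp2 together held 54.9% to 63.9% of that sum in db/db and 57.5% to 68.5% in WT libraries.

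The 3 uncoupling protein genes differed most plainly in whether they were detected at all, so the sequence before their start sites is shown. The promoters are RefSeq sequences of build GRCm38.p6, from 250 to 51 bases before the annotated start, on the + strand of the gene, with capitals for a GC box (GGGCGG on either strand). Ucp2 and Ucp3 are neighbours on chromosome 7, at chr7:100493108-100493307 and chr7:100472741-100472940, and Ucp1 is at chr8:83290098-83290297.
Ucp2: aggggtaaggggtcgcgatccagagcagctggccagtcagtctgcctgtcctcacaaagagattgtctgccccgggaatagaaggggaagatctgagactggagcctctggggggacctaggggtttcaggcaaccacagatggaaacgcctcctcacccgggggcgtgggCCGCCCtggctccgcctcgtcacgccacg
Ucp3: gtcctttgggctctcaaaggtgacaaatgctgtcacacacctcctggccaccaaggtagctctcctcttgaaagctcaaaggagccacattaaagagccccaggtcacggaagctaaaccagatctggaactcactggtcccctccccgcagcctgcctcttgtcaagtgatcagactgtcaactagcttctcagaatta
Ucp1: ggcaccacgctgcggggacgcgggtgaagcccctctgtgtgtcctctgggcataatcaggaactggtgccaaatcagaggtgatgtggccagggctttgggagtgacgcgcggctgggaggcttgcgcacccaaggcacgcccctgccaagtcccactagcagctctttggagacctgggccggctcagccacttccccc
In the full windows of 300 bases, which run to 50 bases past the start, Ucp2 held 2 GC boxes and Ucp3 and Ucp1 held 0. The windows were 64.3%, 55.0% and 64.7% G or C for Ucp2, Ucp3 and Ucp1. A match describes these letters and says nothing of what binds there.

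Windows were found for 39 of the 50 members, 49 windows in all, since some genes have several starts. A GC box was in 79.6% of the member windows, against 35.7% of all 32851 mouse windows of the same length. Those 32851 windows were not limited to genes expressed in these HSCs, and the share among the genes tested was not counted. It was in 36 of 40 windows of members whose mean reached 1 TPM, and in 3 of 9 windows of the other members. The CCAAT box (CCAAT, either strand) was in 44.9% of member windows and 37.4% of all windows, and the E-box (CACGTG, either strand) in 16.3% and 7.15%. The motif of the ERR receptors (TCAAGGTCA, either strand), which are known to act on nuclear genes of mitochondria, was in 0 of the 49 member windows and 0.423% of all windows. The motif of the transcription factor NRF1 was in 2 of the 49 member windows (4.08%) and in 4.6% of all windows, so it showed no excess. Each motif was counted on its own, whether or not it overlapped another.

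Ucp2 transcript was at 334, 348 and 344 TPM in db/db replicates 1, 2 and 3, against 226, 234 and 248 TPM in WT replicates 1, 2 and 3. The groups did not overlap, and the libraries of each genotype lay close together. The means were 342 ± 6.96 TPM in db/db and 236 ± 11.2 TPM in WT HSCs (SD, n = 3 each), a ratio of means of 1.45. Within experiments 1, 2 and 3 the ratio was 1.48, 1.49 and 1.39. On the log2(TPM + 1) scale the fold change was 0.54 (SE 0.23, 95% interval 0.07 to 1.0). It did not pass over all 11931 genes tested with limma (Benjamini-Hochberg adjusted p = 0.899, unadjusted p = 0.0269). Permuting the libraries (exact test, two-sided) gave p = 0.1, the smallest that 3 against 3 libraries allow. The SE comes mostly from other genes of like level: Ucp2's own residual SD was 0.0522 on the log2 scale, against a median of 0.459 over all genes tested.

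The size of the difference depended on how the libraries were scaled. For TPM as deposited, the 11931 genes tested had a median log2 fold change of 0.18. It was 0.00 once each library was divided by its size factor (median-of-ratios scaling). With that scaling Ucp2 was at 366, 308 and 280 in db/db replicates 1, 2 and 3 and at 247, 287 and 218 in WT replicates 1, 2 and 3. The db/db library stayed the higher of each experiment, but the groups overlapped, with db/db replicate 3 below WT replicate 2. The fold change was then 0.34 (limma adjusted p = 0.919, unadjusted p = 0.129), and the permutation test gave an exact p = 0.2.

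A ratio between genes of the same library is free of this scaling, but it depends on the genes chosen for comparison. Slc25a3, Slc25a4 and Slc25a5 had log2 fold changes of 0.01, 0.17 and 0.07, below the median of 0.18 for all genes tested. A ratio to them thus reflects their change as well as that of Ucp2. Ucp2 stood to the summed TPM of the phosphate and ADP/ATP carriers Slc25a3, Slc25a4 and Slc25a5 as 0.341, 0.286 and 0.342 in db/db replicates 1, 2 and 3, against 0.279, 0.196 and 0.228 in WT replicates 1, 2 and 3. The groups did not overlap, though db/db replicate 2 lay close to WT replicate 1. The mean ratio was 0.323 ± 0.0320 in db/db and 0.234 ± 0.0419 in WT HSCs (SD, n = 3 each), with p = 0.1 by the same exact test, again its smallest value. As a share of all carrier TPM, Ucp2 was 14.0% to 15.8% in db/db and 10.7% to 12.9% in WT libraries.

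**Figure D2:**
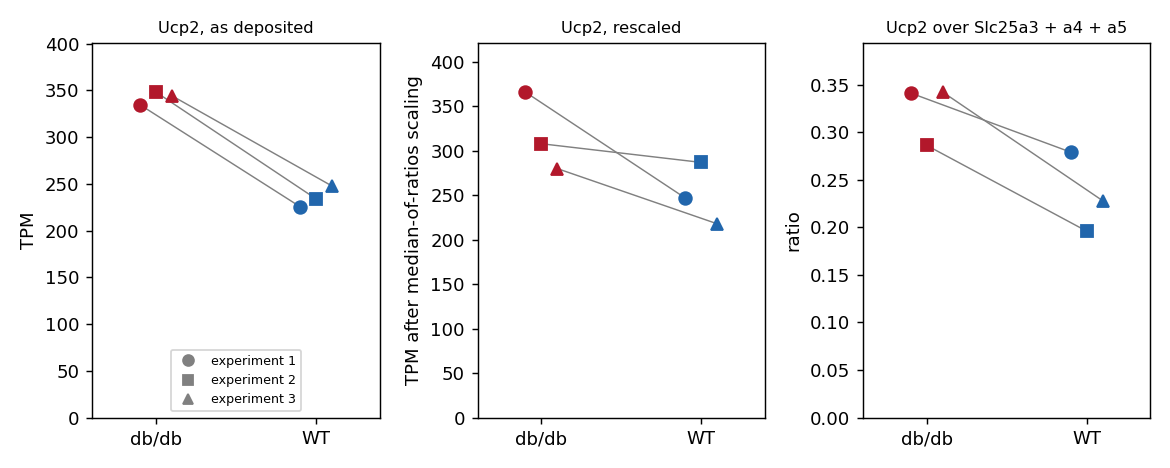
Ucp2 in db/db (left, red) and WT (right, blue) libraries as deposited TPM, as TPM after median-of-ratios scaling and as a ratio to summed Slc25a3, Slc25a4 and Slc25a5 TPM, with a grey line joining the libraries of an experiment. Every line runs lower in WT, and the groups overlap in the middle panel only.

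Some markers of other cells differed between the same libraries as Ucp2. The 10 erythroid genes summed to 316 to 1400 TPM in db/db and 85.8 to 200 TPM in WT libraries, most of it Hbb-b2 in db/db, with Hba-a2 at 0 throughout and Alas2 and Slc4a1 at most 0.6 TPM. At an unadjusted p under 0.05 in limma, 2 of the 6 tested were higher in db/db, and 1 with median-of-ratios scaling. Unlike Ucp2, Hbb-b2 passed over all genes tested (log2 fold change 2.93, limma adjusted p = 0.000688), as 0.0335% of them did as higher. With median-of-ratios scaling its log2 fold change was 2.73 and its groups still did not overlap, but it did not pass (limma adjusted p = 0.36). Of the 6 lymphocyte genes the sum was 125 to 202 TPM in db/db and 50.7 to 115 TPM in WT libraries, nearly all of it Nkg7, with Cd3e, Cd3g and Ms4a1 at 0. The 9 granulocyte genes summed to 3840, 1970 and 1420 TPM in db/db replicates 1, 2 and 3, against 4520, 360 and 286 TPM in WT replicates 1, 2 and 3. The groups overlapped through WT replicate 1, and db/db was the higher in experiments 2 and 3. At an unadjusted p under 0.05 in limma, 6 of the 9 were higher in db/db, but 1 of the 9 with median-of-ratios scaling. Of all genes tested, 4.1% and 2.49% were higher at that p before and with the scaling. In a fit that also holds the experiment as a block, Retnlg had an unadjusted limma p of 0.0527. The others ran from 0.000106 (Lcn2) to 0.00571 (Ngp). With that scaling and the block, Retnlg was at 0.0783 and the others ran from 0.000671 (Lcn2) to 0.0181 (Ngp). The lowest adjusted p in these block fits was 0.14 (Lcn2). Of all genes tested, 5.41% and 2.9% were higher at an unadjusted p under 0.05 in them. Flt3, which HSCs of this gate largely lack and later progenitors carry, was at 18.4 to 29.6 TPM in db/db and 6.18 to 12.7 TPM in WT libraries. It was listed with Cd48, Il7r, Ptprc and Cd34, of which the stated gate names only Cd48 for exclusion. These 5 genes summed to 210 to 337 TPM in db/db and 197 to 218 TPM in WT libraries. Most of that was Cd34, at 164 to 241 and 154 to 184 TPM, so the sum does not measure cells outside the gate. The part of these markers in the Ucp2 result was not tested, and in bulk RNA fewer cells of a type and less RNA per cell cannot be told apart. Without WT replicate 1, which had the highest granulocyte sum, the log2 fold change of Ucp2 was 0.50 (limma unadjusted p = 0.0780). That omission left granulocyte sums of 1420 to 3840 TPM in db/db and 286 to 360 TPM in WT libraries, fully apart. It therefore does not test the part of granulocyte RNA in the Ucp2 result. Ucp2 shares 305 exon bases with Dnajb13 on the opposite strand in GENCODE, and Dnajb13 was at most 0.93 TPM in any library.

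The other carriers close to the uncoupling proteins were at low levels. Slc25a30, a kidney-type relative, was at 8.02, 9.85 and 8.57 TPM in db/db replicates 1, 2 and 3 and at 2.31, 5.30 and 7.02 TPM in WT replicates 1, 2 and 3. The groups did not overlap, but the difference within experiments ran from 1.45 to 0.25 on the log2 scale. The log2 fold change was 0.83 (SE 0.47, limma adjusted p = 0.919), or 0.46 without WT replicate 1. Slc25a14, a brain-type relative also called UCP5, was at 2.83, 15.7 and 6.40 TPM in db/db and at 1.05, 8.58 and 4.59 TPM in WT replicates 1, 2 and 3. It was higher in db/db in each experiment, but the groups overlapped and the log2 fold change of 0.70 had an SE of 0.60. Leaving out WT replicate 1 gave 0.09 and leaving out db/db replicate 2 gave 0.15, whereas dropping WT replicate 2 gave 1.2 and dropping db/db replicate 1 gave 1.21. Slc25a27, known as UCP4, averaged 1.71 ± 1.6 and 1.54 ± 1.05 TPM (SD, n = 3 each). Of this group of 6, 4 were tested, 0 passed, and the median log2 fold change was 0.62.

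The carriers that feed ATP synthase differed little between genotypes. Slc25a5 was at 494, 592 and 404 TPM in db/db replicates 1, 2 and 3 and at 372, 574 and 482 TPM in WT replicates 1, 2 and 3. Slc25a3 was at 369, 470 and 426 TPM in db/db and at 338, 487 and 436 TPM in WT replicates 1, 2 and 3. Both were higher in db/db only in part of the experiments, and the groups overlapped almost fully. Their log2 fold changes of 0.07 (95% interval -0.43 to 0.56) and 0.01 (-0.46 to 0.49) turned to -0.13 and -0.18 after median-of-ratios scaling. Slc25a4 was at 119, 154 and 176 TPM in db/db and at 98.8, 135 and 170 TPM in WT replicates 1, 2 and 3, a log2 fold change of 0.17 (-0.40 to 0.73), or -0.03 after that scaling. The ratio of Slc25a5 to Slc25a4, which compares the ADP/ATP carriers with each other, was 2.29 to 4.17 in db/db and 2.83 to 4.26 in WT libraries. Slc25a5 shares an aligned stretch of 887 bases at 98.3% identity with the processed pseudogene Gm5560, which has no row in the table, so its level is less certain.

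**Figure D3:**
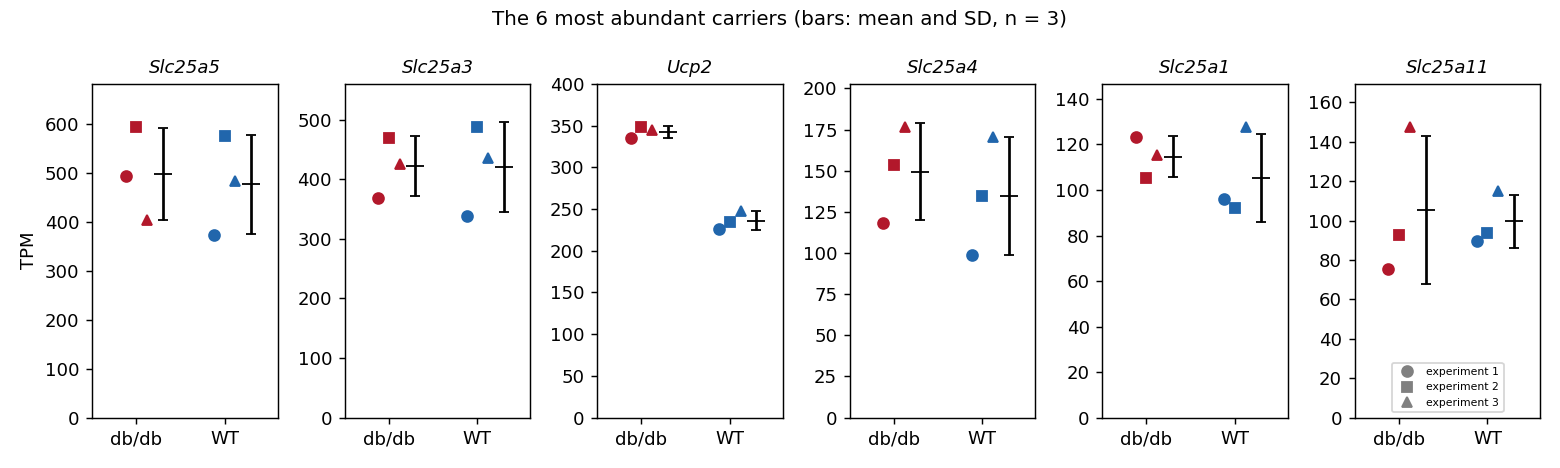
TPM of the 6 most abundant carriers in db/db (left, red) and WT (right, blue) libraries, with symbols for experiments and bars for the mean and SD (n = 3). Ucp2 is the member of the 6 whose groups do not overlap, at 334 to 348 TPM in db/db and 226 to 248 TPM in WT.

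The ATP-Mg/phosphate carriers adjust the adenine nucleotide pool of the matrix, most of them in response to calcium. Slc25a23 was at 61.3, 61.9 and 73.0 TPM in db/db replicates 1, 2 and 3, against 39.7, 36.9 and 53.9 TPM in WT replicates 1, 2 and 3. The groups did not overlap as TPM, nor when scaled by median of ratios, where the values were 54.7 to 67.0 in db/db and 43.5 to 47.4 in WT libraries. The means were 65.4 ± 6.59 TPM in db/db and 43.5 ± 9.12 TPM in WT HSCs (SD, n = 3 each). Its log2 fold change was 0.59 (SE 0.30, 95% interval -0.02 to 1.21), which limma did not pass (adjusted p = 0.919, unadjusted p = 0.0584). A fit that also holds the experiment as a block lowered the unadjusted p to 0.0342 (limma adjusted p = 0.672). Slc25a24 averaged 23.2 ± 6.45 TPM in db/db and 19.1 ± 6.99 TPM in WT HSCs, and Slc25a25 averaged 6.98 ± 1.02 and 4.44 ± 1.81 TPM (SD, n = 3 each). Slc25a41, a member without the calcium-binding part, was at most 0.21 TPM in any library. Of the 8 adenine nucleotide and phosphate carriers, 6 were tested, 0 passed, and their median log2 fold change was 0.23.

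Cofactor and nucleotide carriers held values on both sides of 0. Slc25a17, the peroxisomal carrier of coenzyme A and related nucleotides, was at 43.5, 66.4 and 57.3 TPM in db/db replicates 1, 2 and 3 and at 24.4, 28.6 and 55.7 TPM in WT replicates 1, 2 and 3. The difference lay in experiments 1 and 2, since the libraries of experiment 3 were nearly equal. Its log2 fold change was 0.68 (SE 0.34, limma adjusted p = 0.919, unadjusted p = 0.0594), with an unadjusted p of 0.0357 in the fit with the replicate block. It was 0.45 without WT replicate 1 and 1.03 without WT replicate 3. Slc25a51, which carries NAD into the matrix, was at 66.7, 102 and 105 TPM in db/db and at 57.6, 40.7 and 99.0 TPM in WT replicates 1, 2 and 3. Here the difference came mainly from experiment 2, at 1.31 on the log2 scale against 0.21 and 0.09 in experiments 1 and 3. The log2 fold change over all experiments was 0.53, or 0.24 without WT replicate 2 and 0.87 without WT replicate 3. Slc25a33, a pyrimidine nucleotide carrier, was lower in db/db in each experiment, at 0.53, 2.68 and 0.27 TPM in db/db and 1.04, 4.89 and 2.54 TPM in WT replicates 1, 2 and 3, with overlapping groups. Its log2 fold change of -0.86 had an SE of 0.62. Omitting WT replicate 2 gave -0.48, omitting db/db replicate 3 gave -0.56 and omitting db/db replicate 2 gave -1.32, and a pseudocount of 0.1 gave -1.51. Slc25a36, its close relative, averaged 23.2 ± 2.46 TPM in db/db and 18.5 ± 5.80 TPM in WT HSCs (SD, n = 3 each). The folate and FAD carrier Slc25a32 was at 2.04 to 13.4 TPM in db/db and 1.38 to 8.19 TPM in WT libraries. Of these 9 carriers all were tested, 0 passed, 5 had a log2 fold change above 0, and the median was 0.11.

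Carriers of di- and tricarboxylates had a median log2 fold change of 0.03 for TPM as deposited and -0.15 with median-of-ratios scaling. Slc25a1, which exports the citrate used for fatty acid synthesis, was at 123, 105 and 115 TPM in db/db replicates 1, 2 and 3 and at 96.1, 92.1 and 128 TPM in WT replicates 1, 2 and 3. Its log2 fold change was 0.13 (95% interval -0.41 to 0.68), or -0.06 after median-of-ratios scaling. Slc25a11, part of the malate-aspartate shuttle, averaged 105 ± 37.5 TPM in db/db and 99.6 ± 13.6 TPM in WT HSCs (SD, n = 3 each). The dicarboxylate carrier Slc25a10 averaged 4.10 ± 1.91 and 3.83 ± 0.568 TPM (SD, n = 3 each). Of the 4 listed, 3 were tested and 0 passed, and their log2 fold changes ran from 0.00 to 0.13. Slc25a21, an oxodicarboxylate carrier, was at most 1.24 TPM.

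Among amino acid and carnitine carriers, the aspartate-glutamate carriers Slc25a12 and Slc25a13 complete the malate-aspartate shuttle. Slc25a12 averaged 42.3 ± 16.6 TPM in db/db and 36.7 ± 7.29 TPM in WT HSCs (SD, n = 3 each). Slc25a13 was at 7.61, 18.4 and 15.3 TPM in db/db and at 4.35, 5.25 and 17.3 TPM in WT replicates 1, 2 and 3, a log2 fold change of 0.72 (SE 0.49), with the difference turning sign in experiment 3. Omission of WT replicate 1 gave 0.39, of db/db replicate 2 gave 0.48 and of WT replicate 3 gave 1.27. Slc25a12 was the higher of the pair in every library, by a ratio of 1.98 to 3.98 in db/db and 2.60 to 7.83 in WT libraries. Slc25a20, which brings acylcarnitines to fatty acid oxidation, was at 70.7, 49.0 and 81.1 TPM in db/db and at 52.1, 44.8 and 66.8 TPM in WT replicates 1, 2 and 3. It was higher in db/db in each experiment by 0.13 to 0.43 on the log2 scale, and the groups overlapped. Slc25a38, the glycine carrier needed for haem synthesis, was at 7.29, 4.92 and 10.3 TPM in db/db and at 8.91, 11.8 and 12.2 TPM in WT replicates 1, 2 and 3. Its log2 fold change was -0.53 (SE 0.43, limma adjusted p = 0.920). The groups overlapped on the TPM scale and not after median-of-ratios scaling. Slc25a44, a carrier of branched-chain amino acids, averaged 16.8 ± 3.38 TPM in db/db and 13.2 ± 4.16 TPM in WT HSCs (SD, n = 3 each). Of the 10 listed, 7 were tested, 0 passed, and their median log2 fold change was 0.15.

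Iron enters the matrix through mitoferrins and glutathione through Slc25a39 and Slc25a40. Slc25a37, mitoferrin 1, which is the main form of red cell precursors, was at 15.3, 24.3 and 29.9 TPM in db/db and at 26.2, 15.7 and 32.2 TPM in WT replicates 1, 2 and 3. Slc25a28, mitoferrin 2, was at 27.2, 30.0 and 48.1 TPM in db/db and at 25.7, 21.9 and 30.1 TPM in WT replicates 1, 2 and 3. The ratio of mitoferrin 2 to mitoferrin 1 was 1.23 to 1.77 in db/db and 0.936 to 1.4 in WT libraries, so the groups overlapped. In GENCODE, Slc25a37 shares 381 identical bases with each of Gm31748 and Gm37847, which makes its level less certain. Slc25a39 was lower in db/db in each experiment, at 37.1, 22 and 29.5 TPM in db/db and 48.6, 27.8 and 43.1 TPM in WT replicates 1, 2 and 3. The groups overlapped, and its log2 fold change was -0.41 (SE 0.34, limma adjusted p = 0.920), or -0.60 after median-of-ratios scaling. Omitting db/db replicate 2 gave -0.22, omitting WT replicate 1 gave -0.25 and omitting WT replicate 2 gave -0.64. Slc25a40 averaged 4.92 ± 4.74 TPM in db/db and 2.46 ± 0.671 TPM in WT HSCs (SD, n = 3 each), with db/db replicate 2 at 10.4 TPM far above the rest. All 4 were tested and 0 passed.

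Of the members with less defined substrates, Slc25a45 was the most abundant, at 67.8, 49.2 and 88.2 TPM in db/db and at 52.3, 45.6 and 71.3 TPM in WT replicates 1, 2 and 3. Slc25a46, which sits in the outer membrane and is known for a part in mitochondrial shape, was at 26.6, 30.0 and 31.6 TPM in db/db and at 19.6, 18.6 and 27.9 TPM in WT replicates 1, 2 and 3. It was higher in db/db in each experiment, and the groups overlapped on the TPM scale and not after median-of-ratios scaling. Slc25a35 averaged 12.7 ± 3.75 and 10.4 ± 1.82 TPM (SD, n = 3 each), and it shares up to 545 exon bases with Rangrf on the opposite strand, which stood at 50.6 to 128 TPM in db/db and 79.1 to 126 TPM in WT libraries. Slc25a34, Slc25a43, Slc25a47 and Slc25a53 were at most 6.69 TPM in any library. Of the 9 with a row, 7 were tested, 0 passed, and their median log2 fold change was 0.26.

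The 5 members above 0 that missed the mean of 1 TPM were Slc25a2, Slc25a29, Slc25a21, Slc25a41 and Slc25a18. Slc25a2, an ornithine carrier, was the highest of them at 0, 0.81 and 0.19 TPM in db/db and 0.37, 1.05 and 3.09 TPM in WT replicates 1, 2 and 3. Slc25a29, a carrier of basic amino acids, was listed at 0 in both libraries of experiment 1 and at most at 1.34 TPM in the others. These values are too low for a comparison.

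Over the 40 tested carriers, 0 passed at an adjusted p under 0.05 in limma in either direction, where 4 of 11931 genes tested passed as higher (0.0335%) and 0 as lower (0.0%). Adjusted p ran from 0.899 to 1.0. At an unadjusted p under 0.05, 1 carrier, Ucp2, was higher and 0 were lower, against 4.1% and 1.25% of all genes tested. The groups did not overlap for 3 carriers, Ucp2, Slc25a23 and Slc25a30, all higher in db/db, where this held for 7.85% of all genes tested, and for 0 carriers with db/db below, against 2.32%. With the same sign in all 3 experiments there were 13 higher and 3 lower carriers, against 22.7% and 7.55% of all genes tested. The 13 of 40 higher in all 3 experiments are a larger share than among all genes tested, and the other counts are near the background of the table. No difference in share was tested. The median log2 fold change of the 40 carriers was 0.21 and that of all genes 0.18. A log2 fold change above 0 was found for 32 of 40 carriers and 68.1% of all genes tested.

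Some of these counts moved with the scaling and the fit. With median-of-ratios scaling the medians were 0.06 for the carriers and 0.00 for all genes tested, of which 50.3% were above 0 and 21 of 40 carriers. The groups then did not overlap for 3 higher carriers, Slc25a23, Slc25a30 and Slc25a46, and 1 lower carrier, Slc25a38, against 5.67% and 4.75% of all genes tested. At an unadjusted p under 0.05, 0 carriers were higher and 0 lower, against 2.49% and 2.98%. The fit with the replicate block gave 3 higher carriers, Ucp2, Slc25a23 and Slc25a17, and 0 lower, against 5.41% and 1.62%. Both changes together gave 0 higher and 1 lower, Slc25a39, against 2.9% and 3.82%, and quantile normalization gave 1 higher and 0 lower, against 2.55% and 3.21%. At an adjusted p under 0.05, 0 carriers passed in any of these. The share of all genes passing as higher was 0.0335% with the block, 0.00838% with either scaling and 0.0251% with median-of-ratios scaling and the block, and as lower 0.0168% with the block, 0.0% with either scaling and 0.00838% with both.

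The experiments did not place the carriers alike. The median difference of the 40 carriers was 0.26, 0.19 and 0.20 on the log2 scale in experiments 1, 2 and 3, and that of all genes tested was 0.00, 0.45 and 0.09. Relative to all genes the carriers were thus at 0.26, -0.26 and 0.11, so the sign turned in experiment 2. Within experiments 1, 2 and 3, the db/db library was the higher for 26, 25 and 25 of the 40 carriers.

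**Figure D4:**
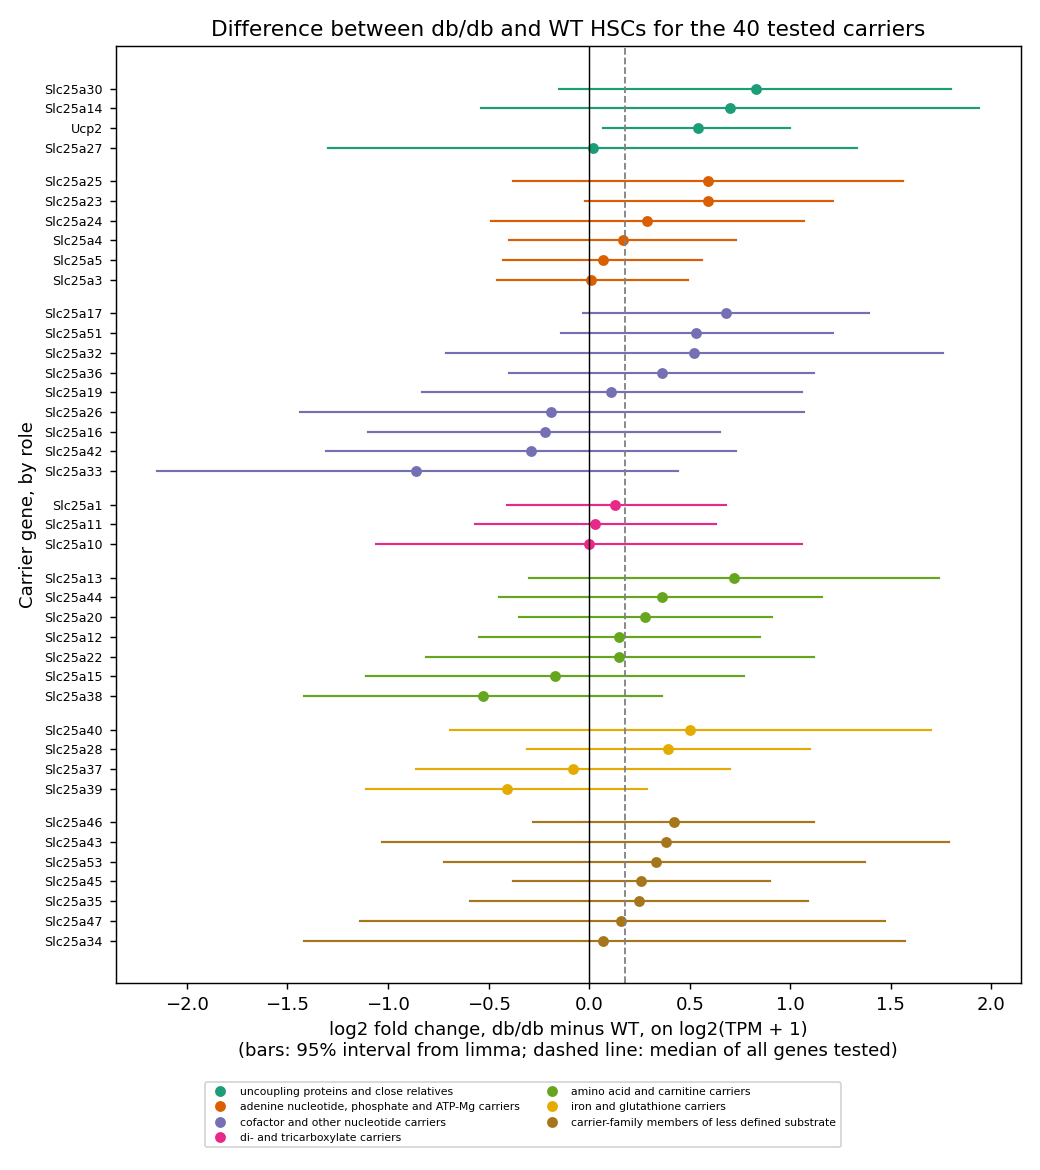
Log2 fold change of db/db minus WT for the 40 tested carriers, by role, with 95% intervals from limma, a solid line at 0 and a dashed line at the median of all genes tested (0.18). The interval of Ucp2 (0.07 to 1.0) is the 1 that lies above 0, and it includes the dashed line.

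Genes that work with the carriers were examined in 3 lists, and 0 of their 50 tested genes passed in limma at an adjusted p under 0.05. Carriers reach the inner membrane through the TOM complex, the small Tim chaperones and the TIM22 complex. Of 13 listed import genes, 12 were tested, and their median log2 fold change was 0.08. Tomm22, the receptor subunit at the centre of TOM, was at 160, 170 and 189 TPM in db/db and at 195, 333 and 207 TPM in WT replicates 1, 2 and 3, below WT without overlap (log2 fold change -0.46, SE 0.26, limma adjusted p = 0.919). It was -0.22 without WT replicate 2 and -0.65 with median-of-ratios scaling. Agk, a lipid kinase that is also a TIM22 subunit, was at 20.4, 44.8 and 49.8 TPM in db/db and at 17.4, 20.0 and 31.0 TPM in WT replicates 1, 2 and 3, with overlap (log2 fold change 0.67, SE 0.38). Omitting db/db replicate 3 gave 0.44 and omitting db/db replicate 1 gave 1.06.

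Of 22 listed other mitochondrial transporters and channels, 19 were tested, and their median log2 fold change was 0.13. The most abundant was Vdac1, the main pore of the outer membrane, at 240 to 398 TPM in db/db and 250 to 340 TPM in WT libraries, with a log2 fold change of 0.04, or -0.15 after median-of-ratios scaling. Vdac2, another such pore, was at 175, 290 and 348 TPM in db/db and at 168, 144 and 264 TPM in WT replicates 1, 2 and 3, with overlap.

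All 19 listed enzymes that use the carriers' substrates were tested, and their median log2 fold change was 0.21. The matrix enzyme Glud1, which opens glutamate to the citric acid cycle, was at 213, 271 and 300 TPM in db/db and at 132, 190 and 209 TPM in WT replicates 1, 2 and 3, without overlap. Its log2 fold change was 0.57 (SE 0.26, limma adjusted p = 0.914, unadjusted p = 0.0368), and no other enzyme of the list had an unadjusted p under 0.05. With median-of-ratios scaling it was 0.37, the groups overlapped and the unadjusted p was 0.114 (limma adjusted p = 0.914). Without WT replicate 1 it was also 0.37. Citrate synthase, Cs, was at 170, 184 and 200 TPM in db/db and at 123, 126 and 164 TPM in WT replicates 1, 2 and 3, also without overlap. Its log2 fold change was 0.43 (SE 0.25, limma adjusted p = 0.919). Of the aspartate aminotransferases of the malate-aspartate shuttle, Got1 was below WT without overlap, at 9.84 to 12.9 TPM in db/db and 13.9 to 16.8 TPM in WT libraries. The log2 fold change of Got1 was -0.39 (SE 0.38, limma adjusted p = 0.92). Got2 was at 122 to 158 TPM in db/db and 117 to 121 TPM in WT libraries, barely apart, and its groups overlapped with median-of-ratios scaling. Over all genes tested, the groups stood apart as TPM for 7.85% with db/db above and 2.32% with db/db below. The malate dehydrogenase Mdh2, the most abundant of the list, was at 329 to 448 TPM in db/db and 424 to 482 TPM in WT libraries.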

How the data were processed

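RNA of sorted HSCs from 3 db/db and 3 WT libraries was linearly amplified and read as pairs of 75 nucleotides from Illumina TruSeq Stranded mRNA libraries, per the labels' protocols. The authors deposited 1 table of TPM per gene symbol, made with RSEM and Bowtie2 on build mm9, per the submitters' processing notes. Their versions, settings, annotation and use of strand are not given in the sources used here. RSEM divides reads shared by similar genes by an estimate. Each column sums to 1000000, 8489 symbols were at 0 in every library, and TPM keeps no depth, so no counting interval could be given.

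Genes whose mean over the 6 libraries reached 1 TPM (11931, of them 40 carriers) were compared on log2(TPM + 1) with limma 3.58.1 in R 4.3.3, with genotype as the only term, trended moderation (17.7 prior and 4 residual degrees of freedom), two-sided tests and Benjamini-Hochberg adjustment over all genes. This scale understates changes of low genes. The code was tested on simulated data. Pairing comes from the labels' experiment numbers. Deviations from group means correlated at 0.04, 0.01 and 0.16 within experiments and at -0.12 to 0.08 between them. The limma p-values rest on a spread between these libraries that is drawn largely from other genes of like level. The permutation p-values use the libraries' own values alone.

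The carriers named by rule were Ucp1, Ucp2 and Ucp3, the most abundant carriers, those with an unadjusted p under 0.05 with or without the block, those of largest change with one sign in all experiments, and the member of smallest p and highest mean in each list. A few genes that the rule or the lists hold are not reported here. Members and lists were chosen with earlier results of these data known. The alternatives tried were no filter or one at 5 TPM, a pseudocount of 0.1 or 0.5, quantile normalization, median-of-ratios scaling, moderation with no trend, the replicate block, and leaving out each library. Median-of-ratios scaling with the block was added after the values were seen. Similar transcripts (at least 150 bases at 98% identity) were sought in GENCODE M21 with minimap2 2.31. Only names and overlaps were taken from that annotation, since its build differs from mm9.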

Additional observations from a re-analysis of the deposited data

How the results depend on the processing

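The count of carriers at an adjusted p under 0.05 was 0 in the main comparison and in all 15 alternatives. The log2 fold change of Ucp2 stayed above 0 in all 15, from 0.34 to 0.57, and from 0.50 to 0.57 with 1 library left out. Its adjusted p ran from 0.509 to 1.0, and its unadjusted p, 0.00724 to 0.129, was under 0.05 in 9. With a replicate block it was 0.0139, and the block passed no carrier. Ucp2 missed 0.05 with median-of-ratios scaling with or without the block, without a trend, and without db/db replicate 2 (0.0645), db/db replicate 3 (0.0541) or WT replicate 1 (0.0780).

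Carriers higher at an unadjusted p under 0.05 numbered 1, and 2 with no filter on low values, 3 with the replicate block, 0 with median-of-ratios scaling, with or without the block, and 0 without a trend. Leaving out 1 library gave 0 to 6, the 6 without WT replicate 3. Carriers lower numbered 0, and 1 (Slc25a39) with median-of-ratios scaling and the block, and 0 to 1 with 1 library left out. The median log2 fold change of the carriers, 0.21, was 0.28 and 0.25 with pseudocounts of 0.1 and 0.5, 0.17 with no filter, 0.25 at a mean of at least 5 TPM, 0.06 with median-of-ratios scaling, with or without the block, and 0.04 with quantile normalization. It was 0.04 (without db/db replicate 3) to 0.38 (without db/db replicate 1) with 1 library left out.

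Genes passing over the whole table numbered 4, and 0 with no filter or without a trend, 1 with either scaling, 6 with the block, and 0 (without db/db replicate 2) to 16 (without WT replicate 1) with 1 library left out. Of the unadjusted calls over all genes, 489 were higher and 149 lower for TPM as deposited, 297 and 355 with median-of-ratios scaling, and 304 and 383 with quantile normalization.

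Log2 fold changes that turned sign were those near 0. Slc25a5 was -0.13 and Slc25a3 -0.18 with median-of-ratios scaling, with or without the block, and -0.04 and -0.11 with quantile normalization. Slc25a4 was -0.03, Slc25a1 -0.06 and Vdac1 -0.15 with median-of-ratios scaling, with or without the block, and Slc25a1 was -0.05 and Vdac1 -0.03 with quantile normalization. With 1 library left out the ranges were -0.10 to 0.21 for Slc25a5, -0.13 to 0.13 for Slc25a3, -0.04 to 0.35 for Slc25a4 and -0.16 to 0.21 for Vdac1. With median-of-ratios scaling the median of all genes tested moved down as well, from 0.18 to 0.00. What lies behind that general shift was not tested. Depth is unknown, and the carriers' SEs of 0.23 to 0.72 limit what 3 libraries a group can show.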
